A study of Mus musculus with 3 samples.

Results

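The Rhox genes encode homeodomain transcription factors and lie together in 1 cluster on the mouse X chromosome. The 4 members described here, Rhox5, Rhox6, Rhox8 and Rhox9, were named in advance from earlier results of these data, so their levels per cell type are a description and were not tested. They are 4 of 26 Rhox genes in count tables that list 18738 genes. UMI counts were summed per cell class and lot, and a level is given as CPM, the gene's UMIs per 1000000 UMIs of that sum. The members of germ cells and those of pre-granulosa cells, the supporting cells of the fetal ovary, were set against each other.

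The samples are 3 cryopreserved lots of fetal ovarian somatic cells (FOSCs) from CD1 mice at E12.5 (embryonic day), called lots 26, 29 and 30, profiled on thaw by 10X Genomics 3′ scRNA-seq. Each lot pools the ovaries of embryos from 10 pregnant females. Germ cells had been depleted by magnetic sorting with SSEA1 and CD31 antibodies, so the germ cells described here are those that stayed in the flow-through. There is 1 condition and no control group. Cells of a lot are not replicates, and n is 3 lots throughout.

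Rhox genes are known as reproductive homeobox genes, since most are transcribed in the gonads, the germ line or the placenta, and the cluster is silenced by DNA methylation in many other tissues. Rhox5 (also called Pem), the founding member, is known from Sertoli cells, the supporting cells of the testis, and is also transcribed in pluripotent cells and placenta. Rhox6 and Rhox9 (also called Psx1 and Psx2) are a closely related pair known from placenta and germ cells. Rhox8 (also called Tox) is known from Sertoli cells and ovarian granulosa cells.

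The 4 members lie close together on chromosome X of GRCm38 in GENCODE's annotation. Rhox5 spans chrX:37804842-37808876 and Rhox6 chrX:37826910-37829857, both on the plus strand. Rhox8 spans chrX:37874778-37878944 and Rhox9 chrX:37899097-37901770, both on the minus strand. All Rhox genes of the cluster lie within 1092225 bases. The coding stretch below encodes the end of the homeodomain and is shown because it lets the kinship of the members be read directly. Each stretch has 72 bases, 5′ to 3′ on the coding strand, and is joined across 2 exons, so the coordinates that follow include an intron. Capitals mark the 18 bases of the conserved motif in the third helix, the part of a homeodomain that contacts the major groove of DNA.
Rhox5: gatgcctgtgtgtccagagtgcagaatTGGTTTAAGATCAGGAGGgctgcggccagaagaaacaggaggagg
Rhox6: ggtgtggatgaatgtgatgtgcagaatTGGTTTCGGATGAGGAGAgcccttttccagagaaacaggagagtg
Rhox8: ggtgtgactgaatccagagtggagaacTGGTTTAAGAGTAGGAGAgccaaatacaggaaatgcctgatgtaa
Rhox9: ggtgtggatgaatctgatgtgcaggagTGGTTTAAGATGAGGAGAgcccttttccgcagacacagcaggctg

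These stretches lie at chrX:37806096-37808662 for Rhox5, chrX:37828437-37829671 for Rhox6, chrX:37874956-37876246 for Rhox8 and chrX:37899252-37900303 for Rhox9. Rhox6 and Rhox9 were identical at 61 of the 72 bases (84.7%), whereas every other pair was identical at 43 to 45 bases (59.7% to 62.5%). Over the whole coding sequence of 684 bases, Rhox6 and Rhox9 were identical at 620 (90.6%). The coding sequences of Rhox5 and Rhox8 have 633 and 963 bases.

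This kinship bears on the counts, because only uniquely mapped reads were counted. The longest identical run of Rhox6 and Rhox9 has 161 bases and ends 495 bases from the 3′ end of the Rhox6 transcript. In Rhox9 it ends 464 or 2070 bases from the 3′ end, depending on the transcript. Within the last 300 bases of both transcripts, where 3′ libraries place most reads, the longest identical run was 37 or 38 bases, depending on the Rhox9 transcript. Rhox5 and Rhox8 shared at most 16 bases in a row with any other Rhox gene. Several other Rhox genes are near-copies of each other, with identical runs of up to 725 bases among those in the tables, and their counts are uncertain for that reason.

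The filters of the study's methods kept 28971 of 29103 barcodes, with 8553 to 10707 cells and 87474664 to 141398825 UMIs per lot and a median of 8949 to 11595 UMIs per cell. Lot 29 was the shallowest. Pairs of lots shared 19 to 30 cell barcodes. Of 21 clusters, made without the Rhox genes, 17 were named from fixed markers and fell into 9 classes. The germ-like class held 749, 337 and 386 cells of lots 26, 29 and 30, and all of its 9 germ cell markers were detected in each lot, summing to 3906 to 4276 CPM against 27.8 to 40.0 CPM in pre-granulosa-like cells. The pre-granulosa-like class held 4054, 3363 and 4586 cells, and its 10 markers summed to 4661 to 5302 CPM against 247.9 to 490.0 CPM in germ-like cells. Scrublet called 13.5% of germ-like and 0.908% of pre-granulosa-like cells doublets.

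Rhox5, Rhox6 and Rhox9 were germ cell genes in these lots, and Rhox8 was a gene of the supporting lineages. Rhox5 was at 689.5, 834.8 and 704.1 CPM in germ-like cells of lots 26, 29 and 30 (mean 742.8 ± 80.0, SD, n = 3). Its pre-granulosa-like level was 10.1, 5.48 and 5.95 CPM (7.18 ± 2.55). The lots did not overlap between the classes, and the ratio within a lot was 68.2 to 152.

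Rhox9 was at 656.0, 718.0 and 588.7 CPM in germ-like cells (654.2 ± 64.7, SD, n = 3) and at 5.45, 2.57 and 2.31 CPM in pre-granulosa-like cells (3.44 ± 1.74). Rhox6 was at 358.2, 388.7 and 286.7 CPM in germ-like cells (344.5 ± 52.4) and at 3.21, 1.06 and 1.16 CPM in pre-granulosa-like cells (1.81 ± 1.21). Both genes were highest in lot 29 and lowest in lot 30 among germ-like cells, and neither had overlapping classes. The ratio within a lot was 120 to 279 for Rhox9 and 111 to 366 for Rhox6.

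Rhox8 ran the other way. It was at 95.9, 90.8 and 68.8 CPM in pre-granulosa-like cells of lots 26, 29 and 30 (85.2 ± 14.4, SD, n = 3) and at 9.76, 4.53 and 5.94 CPM in germ-like cells (6.74 ± 2.7). Every lot was higher in pre-granulosa-like cells, by 9.83 to 20.1 times.

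**Figure D1:**
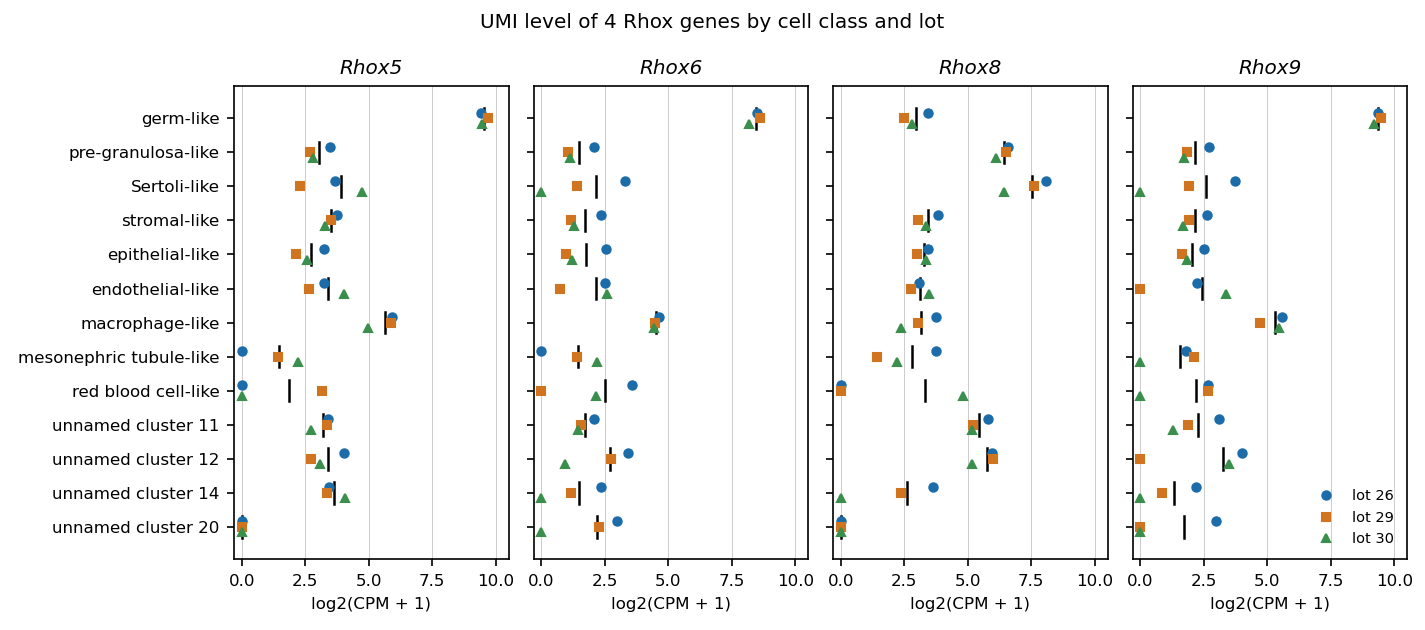
Levels of the 4 Rhox genes, as log2(CPM + 1) on the horizontal axis, in each of 13 cell classes or unnamed clusters, with 1 point per lot and a black line at the log2 of the mean CPM plus 1 over the 3 lots. Rhox5, Rhox6 and Rhox9 are highest in germ-like cells and next in macrophage-like cells, whereas Rhox8 is highest in Sertoli-like and pre-granulosa-like cells.

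The plot of levels by class shows how sharply the 3 germ cell members separate. Germ-like cells were 5.08% of the kept cells and held 91.0% of all Rhox5 UMIs, 94.2% of Rhox6 UMIs and 95.1% of Rhox9 UMIs. Pre-granulosa-like cells were 41.4% of the kept cells and held 75.6% of all Rhox8 UMIs, Sertoli-like cells held 7.70% and germ-like cells 1.89%.

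Single cells gave the same picture. Cells differ in depth (median 18134 to 23767 UMIs in germ-like and 8305 to 11202.5 in pre-granulosa-like cells), so each was thinned to 4000 UMIs and 835 shallower cells were left out. After thinning, a mean of 90.8% of germ-like cells had a Rhox5 UMI, 84.0% a Rhox9 UMI and 65.7% a Rhox6 UMI, against 2.72%, 1.23% and 0.761% of pre-granulosa-like cells. Without thinning these shares were 98.5%, 98.5% and 95.2% against 6.37%, 3.56% and 1.90%. Rhox8 was found in 21.6% of thinned pre-granulosa-like and 1.93% of thinned germ-like cells (36.8% and 12.02% without thinning).

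Many germ-like cells held UMIs of all 3 germ cell members. Among thinned germ-like cells, 55.3%, 62.8% and 47.6% of lots 26, 29 and 30 had UMIs of Rhox5, Rhox6 and Rhox9 at once, and 1.61%, 1.19% and 3.4% had none of the 3. Pooled over lots, a Rhox9 UMI was found in 89.1% of the 963 thinned germ-like cells with a Rhox6 UMI and in 75.2% of the 500 without. In lots 26, 29 and 30 the shares were 89.6%, 91.7% and 85.2% with a Rhox6 UMI and 78.0%, 74.7% and 71.1% without. Since all cells had been brought to 1 depth, these shares can be set side by side. A germ-like cell held a median of 15, 16 and 15 Rhox5 UMIs, 12, 12 and 11 Rhox9 UMIs and 6, 6 and 5 Rhox6 UMIs in lots 26, 29 and 30.

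Outside germ-like cells the 3 genes were low relative to their germ-like levels. In pre-granulosa-like cells Rhox6 was at 0.526% ± 0.329 (SD, n = 3) of its germ-like level and Rhox9 at 0.527% ± 0.263, beside a median of 0.481% over the 9 germ cell markers. These markers ranged from 0.261% to 69.5% in that class, where Nanos3 was at 13.2 CPM against 19.0 in germ-like cells. Rhox5 was at 0.989% ± 0.424 there and at 1.43% ± 0.322 in stromal-like cells, beside 0.651% for Rhox6, 0.518% for Rhox9 and a marker median of 0.599%. The Rhox5 values of lots thus ranged from 1.23% to 1.80% in stromal-like cells, above the highest lot of Rhox6 and Rhox9 there (1.14% and 0.792%). The part of free RNA in these low levels was not tested.

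Macrophage-like cells ranked next after germ-like cells for all 3 genes, without overlap with the classes that followed. Their cluster was led by S100a8, S100a9, BC100530 and Camp, which are not among the macrophage markers used for naming. Tyrobp, C1qb and C1qa, which are, also led it, and whether the class holds 1 cell type was not tested. Rhox5 was at 49.1 CPM ± 16.4 (SD, n = 3), Rhox9 at 38.1 ± 11.4 and Rhox6 at 22.0 ± 1.60 in these 134 cells. This was 6.62%, 5.94% and 6.45% of the germ-like levels, beside a median of 6.03% over the 9 germ cell markers. The Rhox5 signal came from 14 cells, of which 7 were called doublets and 8 held UMIs of Dazl, an RNA-binding protein of germ cells. The 5 cells with the most Rhox5 held 77 of its 96 UMIs. Without called doublets, the pooled level fell to 17.8 CPM for Rhox5, 17.1 for Rhox9 and 6.67 for Rhox6, beside 16.3 for Dazl.

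Rhox8 was not limited to pre-granulosa-like cells. In Sertoli-like cells, named from Amh, Sox9, Dhh and further testis markers, it was at 271.2, 191.4 and 84.9 CPM in lots 26, 29 and 30 (182.5 ± 93.4, SD, n = 3). Lot 26 was the highest and lot 30 the lowest. The value of lot 30 rests on 23 Rhox8 UMIs in 16 cells (exact Poisson 95% interval 53.8 to 127 CPM, counting error only). Within each lot the Sertoli-like level was above the pre-granulosa-like one, by 2.83, 2.11 and 1.23 times, but the ranges of the classes overlapped over lots. UMIs of the 4 Y-linked genes Ddx3y, Eif2s3y, Kdm5d and Uty were found in 75.3% to 93.8% of Sertoli-like cells, and in 0.0436% to 0.743% of pre-granulosa-like cells. Such UMIs were also found in 64.3% to 78.1% of cells of unnamed cluster 14. In lot 29 they were in 34.1% of endothelial-like and 14.2% of stromal-like cells. The paper describes the Sertoli cells of these lots as contaminating, so the Rhox8 level of this class is not one of ovarian cells. After thinning, a mean of 42.7% of Sertoli-like cells had a Rhox8 UMI.

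Rhox5, which is known from Sertoli cells of later testes, stayed low in this class, at 11.6, 3.88 and 25.9 CPM (13.8 ± 11.1, SD, n = 3), the last from 7 UMIs in 2 cells. Rhox6 and Rhox9 had no UMI in the 16 Sertoli-like cells of lot 30, where a count of 0 allows up to 11.1 CPM (3 counts). Gata4, a transcription factor of gonadal somatic cells, was at 192.6 CPM ± 6.83 in Sertoli-like, 149.2 ± 15.1 in pre-granulosa-like and 19.1 ± 6.58 in germ-like cells.

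Next in the order of Rhox8 came unnamed cluster 12 at 52.5 CPM ± 15.1 (SD, n = 3) and unnamed cluster 11 at 42.0 ± 11, whose lots overlapped with each other. Both were below pre-granulosa-like cells and above stromal-like cells (9.81 ± 2.94) in all lots. Cluster 11 was led by Lypd1 and Pax8, and cluster 12 by Lars2, with cells at 0.243 times the median depth of their lots. Stromal-like, red blood cell-like, epithelial-like, macrophage-like, endothelial-like and germ-like cells followed at 6.74 to 9.81 CPM, and neighbours in this order overlapped over lots. Germ-like cells held Rhox8 at 7.93% ± 2.66 of its pre-granulosa-like level, beside a median of 7.88% over the 10 pre-granulosa markers.

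**Figure D2:**
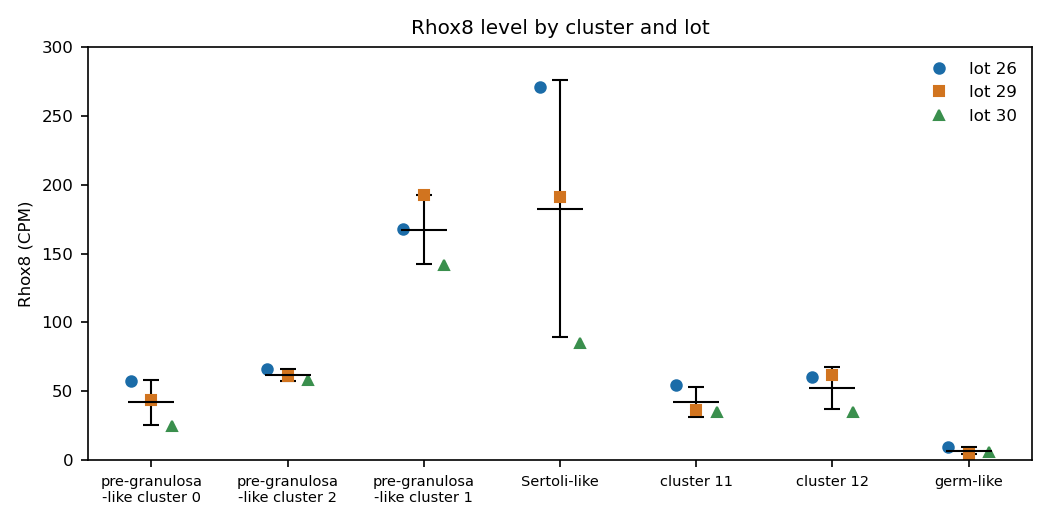
Rhox8 level in CPM in the 3 pre-granulosa-like clusters, Sertoli-like cells, unnamed clusters 11 and 12 and germ-like cells, with 1 point per lot and bars for the mean and SD over 3 lots. Cluster 1 is above clusters 0 and 2 in every lot, and Sertoli-like cells spread from 84.9 to 271.2 CPM.

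Within the pre-granulosa-like class, Rhox8 was uneven. Cluster 1, led by Sprr2d and also by Fst, which encodes follistatin, held 167.9, 192.3 and 141.9 CPM of Rhox8 in lots 26, 29 and 30 (167 ± 25.2, SD, n = 3). Cluster 2 held 66.4, 61.2 and 57.9 CPM (61.8 ± 4.28) and cluster 0 held 57.2, 43.7 and 24.9 CPM (41.9 ± 16.2). Cluster 1 was above both others in all lots, although its cells were the shallower ones, at 0.770 times the median depth of their lots. These clusters were defined on the same cells, so the difference is a description.

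The clusters were also spread unevenly over lots, which matters for the lot means of Rhox8. Cluster 2 had 84, 162 and 2635 cells in lots 26, 29 and 30, and cluster 0 had 2319, 1965 and 779. Heat shock genes (Hspa1a, Hspa1b and Hspb1) were among those that led cluster 2. After thinning, a mean of 32.8% of cells in cluster 1, 19.8% in cluster 2 and 13.0% in cluster 0 had a Rhox8 UMI. Rhox5 did not follow this order and was at 7.10, 8.22 and 7.10 CPM in clusters 1, 2 and 0.

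A different axis within germ-like cells was then tested, which the choice of the members had not used. Stra8 is induced by retinoic acid and is required for entry into meiosis, which begins in the ovary around this stage. Cells with 2 or more Stra8 UMIs (633, 278 and 341 in lots 26, 29 and 30) were compared with cells without any (82, 40 and 29), and 69 cells with 1 UMI were left out. UMIs were summed per side and lot and compared by edgeR's quasi-likelihood test, and p-values were adjusted over the 11073 genes tested (Benjamini-Hochberg). All 4 members passed the filter on low counts.

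Rhox6, Rhox9 and Rhox5 were lower in the Stra8+ cells, and 3 of 4 members were called where 14.1% of all genes tested were called (1562; 7.31% higher and 6.8% lower). Rhox6 was at 585.4, 644.8 and 624.7 CPM in cells without Stra8 and at 329.1, 345.3 and 254.4 CPM in Stra8+ cells of lots 26, 29 and 30. The sides did not overlap. Rhox6 fell by 1.04 on the log2 scale (SE 0.160, adjusted p = 0.00100 by edgeR's quasi-likelihood test), lower in 3 of 3 lots.

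Rhox9 was at 1072, 1117 and 1088 CPM in cells without Stra8 and at 604.1, 653.4 and 532.8 CPM in Stra8+ cells. All lots without Stra8 lay close together and well above the others. Rhox9 fell by 0.91 on the log2 scale (SE 0.145, adjusted p = 0.00121 by edgeR's quasi-likelihood test), lower in 3 of 3 lots. Rhox6 and Rhox9 were called under all 10 alternatives, with log2 differences of -1.14 to -0.72 and -0.998 to -0.64.

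Rhox5 was at 888.0, 1116 and 992.0 CPM in cells without Stra8 and at 664.0, 788.1 and 676.9 CPM in Stra8+ cells. The sides did not overlap here either. Rhox5 fell by 0.54 on the log2 scale (SE 0.157, adjusted p = 0.0357 by edgeR's quasi-likelihood test), lower in 3 of 3 lots. This call was lost on a split of thinned cells (-0.24, adjusted p = 0.369 by edgeR's quasi-likelihood test) and without lot 26 or lot 30. The thinned split set cells with any thinned Stra8 UMI against 379 without, more than the 151 without Stra8 at full depth. Its side without Stra8 thus included cells with Stra8 UMIs, so it was not the same contrast. Rhox6 and Rhox9 kept their calls on this split, and why the call of Rhox5 was lost was not tested. Whether Rhox5 fell less than Rhox6 or Rhox9 was not tested.

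Rhox8 did not pass the test, at 10.8 CPM ± 2.65 (SD, n = 3) in cells without Stra8 and 6.22 ± 2.72 in Stra8+ cells (log2 difference -0.83, SE 0.384, adjusted p = 0.173 by edgeR's quasi-likelihood test). Its level went from 13.8 to 9.18, 8.76 to 3.84 and 9.74 to 5.63 CPM in lots 26, 29 and 30, and the sides overlapped over lots. At an unadjusted p under 0.05 in edgeR, all 4 members passed, Rhox8 among them. Its sign was the same under all 10 alternatives, and it was called under 0 of them. Of the 10 genes of the pre-granulosa programme, 9 could be tested and 0 were called by edgeR or DESeq2 or passed at an unadjusted p under 0.05, with a median log2 difference of -0.20. With the lot as a block, 1 of them was called lower. The 10 pre-granulosa markers summed to 182.8 to 597.1 CPM in cells without Stra8 and 253.6 to 480.4 CPM in Stra8+ cells. The median depth was 16226.5 to 20735 UMIs in cells without Stra8 and 18205.5 to 23974 in Stra8+ cells. Called doublets were 18 of 151 and 170 of 1252 cells, and cells with a Y-linked UMI were 7 and 17. Without the cells that held a Y-linked UMI, the log2 differences were -1.11 for Rhox6, -1.0 for Rhox9 and -0.58 for Rhox5.

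**Figure D3:**
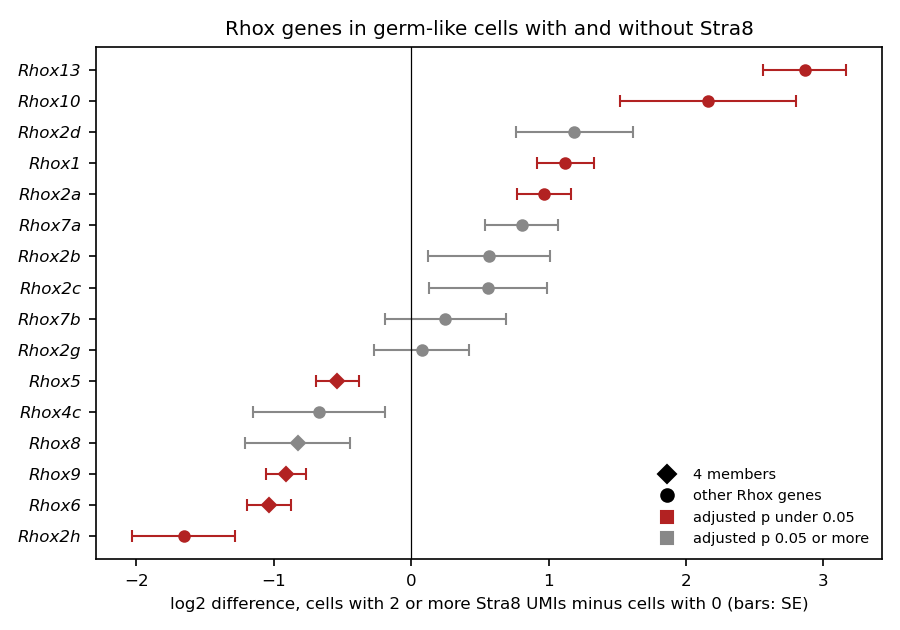
Log2 difference of each of 16 tested Rhox genes between germ-like cells with 2 or more Stra8 UMIs and those with none, with bars of 1 SE from edgeR, where diamonds are the 4 members and red marks an adjusted p under 0.05. Rhox5, Rhox6, Rhox9 and Rhox2h are called lower, and Rhox1, Rhox2a, Rhox10 and Rhox13 are called higher.

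The other Rhox genes did not move as 1 group. Of the 12 that could be tested, 4 were higher in Stra8+ cells, 1 was lower and 7 did not pass the test. Rhox13, which is known as a retinoic acid induced gene of differentiating male germ cells, was at 5.30 CPM ± 3.53 (SD, n = 3) without Stra8 and at 45.0 ± 4.56 in Stra8+ cells. It rose by 2.86 on the log2 scale (SE 0.302, adjusted p = 6.98e-05 by edgeR's quasi-likelihood test) in 3 of 3 lots and was called under all 10 alternatives.

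Rhox1 rose from 39.6 CPM ± 14.7 to 90.6 ± 5.73 (log2 difference 1.12, SE 0.209, adjusted p = 0.00331 by edgeR's quasi-likelihood test), a call lost without lot 26 (adjusted p = 0.0748). Rhox2a rose from 23.1 CPM ± 2.25 to 45.8 ± 4.77 (0.97, SE 0.199, adjusted p = 0.00618), and Rhox2h fell from 8.87 ± 0.991 to 2.75 ± 0.730 (-1.66, SE 0.376, adjusted p = 0.0105). Both calls were lost without lot 26 or lot 30, that of Rhox2h also on thinned cells, and both genes have near-copies in the cluster. Rhox10 was called with 3 UMIs in all cells without Stra8 and 144 in Stra8+ cells, a ratio of pooled rates of 4.69 (exact 95% interval 1.57 to 23.0, counting error only), and lost its call under 5 alternatives.

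Genes of the germ line around these members fell into 2 directions. Of 10 genes of the early germ cell programme, 9 were lower in Stra8+ cells, with a list median of -0.99 beside 0.01 over all genes tested. Among them were the pluripotency gene Nanog (-1.94), the germ cell specifiers Prdm1 (-1.20) and Tfap2c (-1.77), and Nanos3 (-1.41). Without lot 26 only 5 of them and without lot 30 only 6 of them were called. Dppa3 did not pass the test (-0.53, adjusted p = 0.115 by edgeR's quasi-likelihood test). Of 10 genes of meiotic entry, 9 could be tested and were called higher, including Stra8, by which the cells were split, and the synaptonemal complex genes Sycp1 (2.82) and Sycp3 (2.26). Of 7 tested genes of DNA methylation and its removal, Uhrf1 was higher (1.37) and Tet1 lower (-1.06). Gata4 (-0.11) and Gata6 (-0.083) were tested, and 0 of them were called by edgeR or DESeq2 or passed at an unadjusted p under 0.05. With the lot as a block, 3075 genes were called in place of 1562, and no call of the 4 members changed. Under this block Dppa3 was called lower as well, and Rhox2d (adjusted p = 0.0256) and Rhox7a (adjusted p = 0.00887) joined the Rhox genes called higher by edgeR's quasi-likelihood test. Over all 10 alternatives Rhox2d was called under 2 and Rhox7a under 5.

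**Figure D4:**
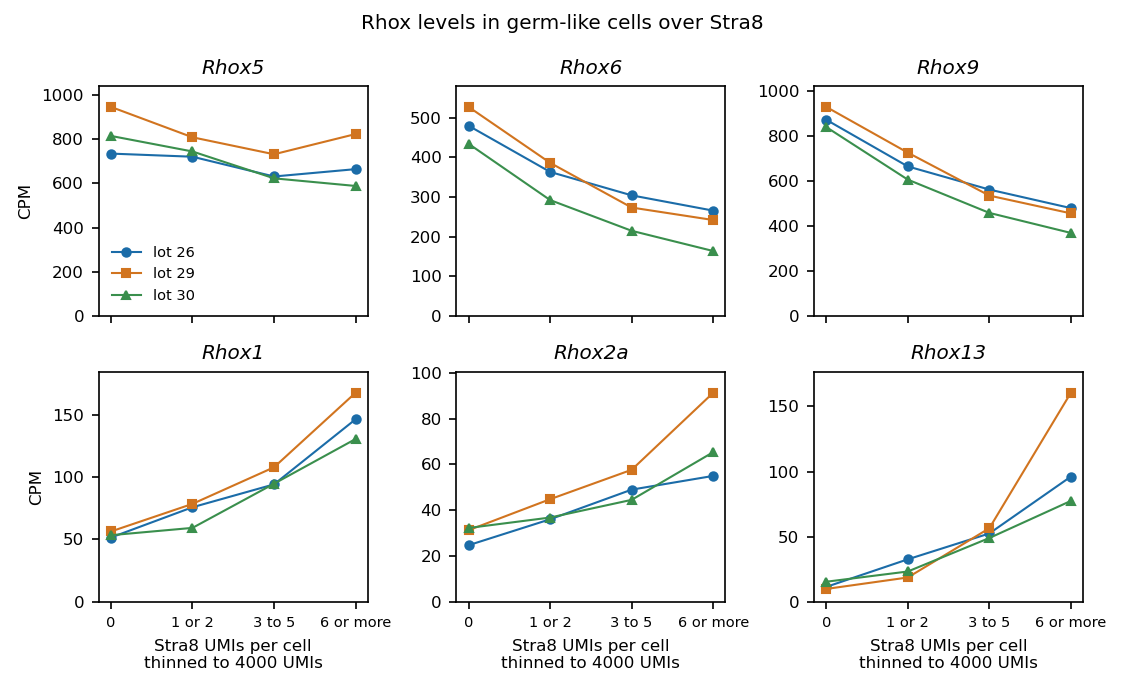
CPM of 6 Rhox genes in germ-like cells, grouped by the number of Stra8 UMIs after thinning to 4000 UMIs per cell (0, 1 or 2, 3 to 5, 6 or more), with 1 line per lot. Rhox6 and Rhox9 step down and Rhox13, Rhox1 and Rhox2a step up over the groups, whereas Rhox5 is level over the last groups.

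Rhox6 and Rhox9 stepped down over groups of rising Stra8, as the plot of levels over Stra8 shows. The groups use thinned counts, so cells that hold Stra8 UMIs at full depth can fall in the first group. Whether the change is graded within single cells was not tested. Over cells with 0, 1 or 2, 3 to 5 and 6 or more thinned Stra8 UMIs (379, 423, 399 and 262 cells, with at least 39 per lot), Rhox9 was at 882, 667, 519 and 435 CPM. Rhox6 was at 480, 347, 264 and 223 CPM over the same groups. Each step was downward in all lots for both genes.

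Rhox5 was at 832, 758, 662 and 692 CPM over these groups, with the last step upward in 2 lots and downward in 1. Rhox13 went from 12.2 to 111 CPM and Rhox1 from 53.8 to 148 CPM between the first and the last group. These groups describe the trend, and no test was run on them.

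Proliferation was a further axis that the choice of members had not used. Cells with 2 or more UMIs of Mki67 and Top2a together, both made in dividing cells, were compared with cells without any. Among pre-granulosa-like cells, 320 were cycling by this rule and 9966 were not, and 1717 cells with 1 UMI were left out. Of the 320, 248 held exactly 2 UMIs, so the cycling side rests mostly on cells at the threshold. How many of them were dividing was not tested. None of the 4 members was called, where 0.307% of the 12683 genes tested were called (39, all higher). The 39 include Mki67 and Top2a, by which the cells were split.

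Rhox8 was at 81.3, 125 and 67.7 CPM in cycling pre-granulosa-like cells of lots 26, 29 and 30 and at 97.0, 91.2 and 72.1 CPM in non-cycling ones. Lot 29 was higher in cycling cells and the other lots were lower, and the sides overlapped. The log2 difference was -0.09 (SE 0.181, adjusted p = 0.936 by edgeR's quasi-likelihood test), and the fold of cycling over non-cycling cells was 0.941 with an interval of 2 SE on either side of 0.733 to 1.21. Rhox5, Rhox6 and Rhox9 had log2 differences of 0.05, 0.60 and 0.47 at levels under 10 CPM. At an unadjusted p under 0.05, 0 of the 4 members passed in edgeR and 0 in DESeq2. With the lot as a block, 728 genes were called in place of 39, and no member was among them.

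Nearly all germ-like cells were cycling by this rule (1395, against 27 that were not), so this comparison had little reach. None of the 4 members was called where 0.333% of 10824 genes tested were called (36, all higher), and 0 passed at an unadjusted p under 0.05 in edgeR or DESeq2. Mki67 and Top2a, by which the cells were split, are among the 36. The median log2 difference over all genes was 0.19 here. The fold of cycling over non-cycling cells was 0.798 (0.576 to 1.11) for Rhox5, 0.993 (0.680 to 1.45) for Rhox6 and 1.06 (0.787 to 1.44) for Rhox9. With the lot as a block, 84 genes were called in place of 36.

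The rest of the Rhox family was mostly germ cell transcribed as well. Of the other 22 Rhox genes, 16 had 20 or more UMIs in all kept cells and 6 had fewer, with none at 0. In germ-like cells Rhox1 was at 84.6 CPM ± 5.33 (SD, n = 3), Rhox2a at 43.4 ± 4.23, Rhox13 at 40.0 ± 4.06 and Rhox7a at 18.6 ± 2.25. In pre-granulosa-like cells these 4 genes were at 0.561, 0.245, 0.25 and 0.0808 CPM. The remaining 12, Rhox2b, Rhox2c, Rhox2d, Rhox2e, Rhox2g, Rhox2h, Rhox4c, Rhox4d, Rhox4e, Rhox4g, Rhox7b and Rhox10, were at 0.620 to 9.14 CPM in germ-like cells. Rhox7b was the least confined to germ-like cells, which held 66.4% of its UMIs, against 87.4% to 100% for the other genes of these 16. It was at 6.32 CPM ± 1.69 in germ-like, 4.97 ± 5.30 in Sertoli-like and 0.631 ± 0.0960 in pre-granulosa-like cells. Rhox8 was thus the 1 Rhox gene of these 20 with a higher mean in pre-granulosa-like than in germ-like cells.

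Genes whose level over classes was most like that of a member were sought over the 27 sums of a named class and lot, among 10150 genes at 20 CPM or more in a sum. The sums of a lot share a library, and no test applies. Rhox5 was followed most closely by Psma8, Hormad2, Stra8, Slc25a31 and Syce1 (Pearson r of log2(CPM + 1) from 0.94 to 0.92). Rhox6 was followed by Dazl, Syce3, Dppa5a, Tuba3a and Tcl1 (0.98 to 0.94), and Rhox9 by Tuba3a, Dazl, Apoc2, Sycp3 and Tex101 (0.98 to 0.95). Rhox8 was followed by Rnd2, Kcnh1, Tmem114, Sat2 and Vdac3 (0.95 to 0.91). Between members, r was 0.93 for Rhox6 with Rhox9, 0.87 for Rhox5 with Rhox9, 0.82 for Rhox5 with Rhox6 and -0.17 to -0.03 for Rhox8 with the other 3.

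The neighbours of the cluster went in both directions. Of 51 genes annotated within 500 kb of it, 21 were in the tables. Without overlap of lots, some of these were higher in germ-like than in pre-granulosa-like cells and some lower. How often all genes separate in this way was not computed, so the neighbours are only described. The largest ratio among the 21 genes was that of Gm9, next to the cluster, at 10.4 CPM ± 1.30 (SD, n = 3) against 0.0570 ± 0.0692. Ube2a, a ubiquitin-conjugating enzyme, was at 363.7 CPM ± 28.0 against 66.7 ± 6.77. Rpl39, a ribosomal protein gene, was at 5082 CPM ± 459 against 4538 ± 400 and Ndufa1, of mitochondrial complex I, at 418.8 ± 61.9 against 220.1 ± 24.5. Among pre-granulosa-like cells Slc25a5, a mitochondrial carrier, was also among the highest, at 249.8 ± 12.4 against 165.0 ± 9.29 in germ-like cells.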

How the data were processed

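The 3 lots of thawed fetal ovarian somatic cells were profiled by 10X Genomics 3′ v3 scRNA-seq. The authors identified barcodes and counted UMIs with UMI-tools, aligned them with STAR 2.7 (GRCm38), assigned those that mapped to 1 place to genes with featureCounts 2.0.1, and deposited UMI counts per gene and cell without normalization. The annotation release and the strand setting are not given in the sources used here, so overlapping genes can share counts.

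Cells with 200 to 9000 genes and at most 10% mitochondrial UMIs were kept, after the study's methods. They were clustered in Seurat 5.3.0 (R 4.3.3) on 2000 variable genes without the Rhox genes, 50 principal components and a resolution of 0.8. A cluster took the name of a marker list with a mean log2(CPM + 1) difference of at least 1 from the median of clusters, a lead of 0.25 over the next list and 3 raised markers, 2 of them in 60% of its cells. Doublets were called by Scrublet (scanpy 1.11.5, expected rate 8%) and kept. The members and all gene lists were chosen with earlier results of these data known. Named beside the members were Rhox genes with 20 or more UMIs, the 5 most similar genes per member, the highest of the genes within 500 kb of the cluster and the fixed lists. The plan had Rhox5 as a member of the pre-granulosa side, and its level in germ-like cells was added after the data were seen, as were the level of Rhox8 in Sertoli-like cells and the removal of cells with a Y-linked UMI. Gm9 was named after its value was seen.

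UMI sums per side of a split and lot were compared by the quasi-likelihood test of edgeR 4.0.16 after TMM scaling and filterByExpr, with p-values adjusted by Benjamini-Hochberg and a threshold of 0.05, and the code was tested on simulated data. Both sides of a split come from the same library of a lot, so they are paired by construction. Deviations from the side means correlated within a lot at 0.20 to 0.40 for the Stra8 split, 0.20 to 0.30 for cycling pre-granulosa-like cells and -0.01 to 0.21 for cycling germ-like cells. The alternatives were other clustering settings, stricter cell filters, TMM-scaled levels, DESeq2's size factors, no low-count filter, DESeq2 1.42.0, the lot as a block, splits on thinned cells, doublets removed and each lot left out. Cells are pooled within lots, so p-values measure the spread between 3 pools. Intervals on levels are exact Poisson intervals and cover counting error only. Sequences were read from GENCODE's M21 transcripts and annotation of GRCm38.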

Additional observations from a re-analysis of the deposited data

How the results depend on the processing

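Of 210 values recomputed under alternatives, 170 were labelled as unchanged. Differences had to keep their direction and side of the threshold, and levels had to move by less than the spread between lots. Counts of genes called had to stay within a set fold of the main count. Of the other values, 20 levels or counts moved further, 17 differences changed sign and 3 lost their call. With TMM scaling over classes, Rhox9 in germ-like cells was at 582 CPM and Rhox5 at 661 CPM. No other clustering, filtering or doublet setting moved the 6 levels recomputed (Rhox5, Rhox6 and Rhox9 in germ-like, Rhox5 and Rhox8 in pre-granulosa-like and Rhox8 in Sertoli-like cells) beyond their SD. In macrophage-like cells, which are not among these, levels without doublets were 17.8 CPM for Rhox5, 17.1 for Rhox9 and 6.67 for Rhox6.

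For the Stra8 split, 3075 genes were called with the lot as a block, and 323 to 1470 with a lot left out (323 without lot 26, 402 without lot 30). Rhox5 lost its call on thinned cells (-0.24) and without lot 26 or lot 30, with log2 differences of -0.59 to -0.53 over lots left out. For cycling pre-granulosa-like cells, 68 genes were called without the low-count filter, 95 by DESeq2, 728 with the lot as a block, 4 on thinned cells and 6 to 14 with a lot left out. For cycling germ-like cells, 10 were called with DESeq2's size factors, 101 without the low-count filter, 64 by DESeq2, 84 with the lot as a block, 60 without doublets and 12 to 60 with a lot left out. The causes were not tested.

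Directions that no test had called changed as follows. In cycling pre-granulosa-like cells the log2 difference of Rhox5 was -0.22 and that of Rhox8 0.00051 on thinned cells, and with a lot left out they ran from -0.25 to 0.55 for Rhox5, -0.10 to 1.56 for Rhox6, -0.23 to 0.028 for Rhox8 and -0.24 to 0.88 for Rhox9. In cycling germ-like cells Rhox6 was at 0.041 without the low-count filter, 0.081 with the lot as a block and 0.11 on thinned cells, Rhox8 at -0.23 on thinned cells, and Rhox9 at -0.024 with DESeq2's size factors and -0.0095 by DESeq2. With a lot left out the ranges there were -0.54 to 0.066 for Rhox5, -0.19 to 0.58 for Rhox6, -0.12 to 0.72 for Rhox8 and -0.070 to 0.42 for Rhox9.

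Some values rest on few cells or UMIs. The 27 non-cycling germ-like cells and the 16 Sertoli-like cells of lot 30 allow only wide intervals, and Rhox8 in germ-like cells rests on 266 UMIs.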
